A study of Mus musculus with 20 samples.

Results

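The line labelled ih_DCTC was compared with the cells labelled MDSC across all genes of a mouse RNA-seq count table. The 3 ih_DCTC libraries and the 3 MDSC libraries were taken by their cell type labels, which makes 6 of the 20 libraries and 2 of the 7 groups of the series. Per the labels, ih_DCTC cells are malignantly transformed dendritic cells from bone marrow that were cultured together with SU3, a glioma stem cell line. MDSC stands in the labels for immunosuppressive cells of myeloid origin, which the growth protocol names among the precursors of the lines. Every group carries the same label for the host, a nude mouse, a strain that lacks a thymus and mature T cells but keeps B cells and myeloid cells. The labels give no age, sex, agent or engineered allele for either group. They describe culture in DMEM with 10% serum, serial passage and monoclonal culture, so a line may be 1 clone. Nothing in them says whether the 3 libraries of a group came from separate cultures or animals. The spread behind each p-value was estimated over all 20 libraries of the 7 groups, not only the 6 compared, and may be technical.

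Dendritic cells take up antigen, cut it in endosomes, load it on MHC class II molecules and carry it to lymph nodes, where they meet T cells. Their development rests on the transcription factors PU.1 (Spi1), Irf8, Irf4, Batf3, Zbtb46 and Id2 and on the growth factor receptor Flt3. Myeloid-derived suppressor cells are immature granulocytic and monocytic cells that accumulate in tumour-bearing hosts. They are known for S100a8, S100a9, the oxidase subunit Cybb and the enzymes Arg1 and Nos2. Both cell types are leukocytes and share the haematopoietic programme.

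The libraries held 9354102, 12094424 and 10391271 counts in ih_DCTC and 9946852, 9117398 and 10397525 in MDSC, and 15779 of the 43432 genes in the table were tested. In the alignment table, 2.33% to 5.99% of reads fell in introns in ih_DCTC and 9.64% to 10.36% in MDSC, so this share differed between the groups without overlap. The share of reads mapped to more than 1 place also did, at 6.61% to 8.57% in ih_DCTC and 4.35% to 4.51% in MDSC. The part of that second share in the differences was not tested. The 3 MDSC libraries lay close together, at a root mean square difference of 0.302 to 0.305 in log2(CPM + 0.5). CPM is, throughout, the count scaled to the library total times its trimmed mean (TMM) factor. The ih_DCTC pairs differed by 0.757 to 0.987. The second ih_DCTC library lay nearer to the line labelled ih_BCTC, described as oligodendrocytes recultured from a brain-grown SU3 tumour. Its distances to the 3 ih_BCTC libraries were 0.447, 0.364 and 0.426, smaller than its distances to the other ih_DCTC libraries and than those within ih_BCTC (0.492 to 0.524). Where leaving out this library changed the call of a gene named here, that is stated beside the gene.

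**Figure D1:**
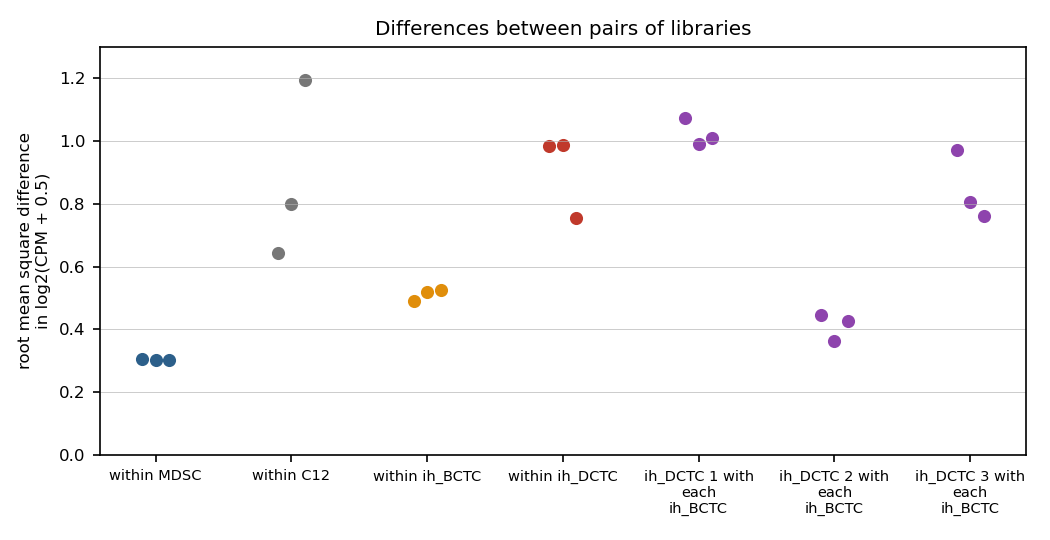
Root mean square difference in log2(CPM + 0.5) over all tested genes, 1 dot for each pair of libraries, for pairs within a group and for each ih_DCTC library with each of the 3 ih_BCTC libraries. MDSC pairs lie at 0.302 to 0.305, ih_DCTC pairs at 0.757 to 0.987, and the second ih_DCTC library lies 0.364 to 0.447 from ih_BCTC.

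The ih_DCTC libraries held almost no RNA of leukocyte genes and much RNA of matrix, mesenchymal and patterning genes. All 11 tested MHC class II presentation genes, all 18 leukocyte signalling genes and 23 of 24 leukocyte cytoskeleton and adhesion genes were lower than in MDSC. In the other direction, 18 of 19 collagen chains, 20 of 22 mesenchymal transcription factors and 33 of 34 Hox genes were higher. The profile went against the dendritic label on MHC class II and most surface markers. It also did on Spi1, Irf8 and Irf4, with ih_DCTC means of 0.138, 0.229 and 0.628 CPM. Of 14 dendritic cell transcription factors, 5 were not called, among them Batf3 and Zbtb46. MDSC are not a dendritic cell reference, and their libraries also carried B cell RNA. The ih_DCTC cells are called by their label only. In bulk RNA, fewer cells of a type and less RNA per cell cannot be told apart.

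Across the transcriptome, edgeR's quasi-likelihood test called 9350 of 15779 genes at an adjusted p under 0.05, 59.3% of those tested. Of all tested genes, 31.2% were called higher in ih_DCTC and 28.1% lower. The groups did not overlap in 71.5% of tested genes (35.3% with every ih_DCTC library higher and 36.2% with every one lower). Counts of list members called are to be read against these shares. The median log2 fold change of all tested genes was 0.09, and other scalings moved it by -0.139 and 0.219. With these scalings, 48.4% (relative log expression) and 58.9% (upper quartile) of called genes were higher in ih_DCTC, against 52.6% with trimmed mean scaling.

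Some calls were lost when 1 library was left out or when the intron share was added as a covariate. That share did not overlap between the groups, so its part and that of the group cannot be told apart. With that share as a covariate, Bst2, Trem2, Ifitm3, Gapdh, Ldha, Aldoa, Rb1, Mki67, Cdkn1a, Cdkn2a, Cdkn2b, Thy1, Cd44, Thbs1, Plau, Aldh1a1, Trp53inp1, Myh9, Krt18, Cd200, Lcn2, Hoxb4, Il12a and Lin28a lost their call. The fitted log2 differences of Il12a (-10.23, against -11.09 without the covariate), Lin28a (-9.21 against -9.37), Lcn2 (-2.82 against -2.82) and Cd44 (-1.11 against -1.03) stayed about as large, with edgeR adjusted p of 0.065, 0.13, 0.16 and 0.105. Those of Gapdh (0.16 against 2.53), Ldha (0.22 against 2.68) and Aldh1a1 (-0.09 against -4.63) came close to 0. With the MDSC libraries summed to 1, a test added after seeing the data, Bst2, Cd200, Cd44, Flna, Gapdh, Hif1a, Hoxb4, Id2, Ifitm3, Il1a, Il6, Krt18, Lcn2, Ldha, Meis1, Myh9 and Trem2 did. Bst2, Cd200 and Cd44 also lost it without the first or the third ih_DCTC library or any MDSC library, Myh9 without the first ih_DCTC library, and Cdkn2a, with 6 counts in all, without any single library except the third of MDSC.

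Differences were large in both directions. Errors after ± are standard errors (SE) of fitted log2 fold changes or, where marked, standard deviations (SD), and each group has n = 3 libraries. Of the called genes, 1268 were higher and 948 lower by 4 to 8 on the log2 scale, and a further 405 and 699 by 8 or more. These sizes and the list medians are fitted values. For genes with few or no counts in a group they depend on the prior count that edgeR adds and are no bound. No read in any ih_DCTC library was counted for 303 genes that averaged at least 5 CPM in MDSC, and 128 genes showed the reverse. Where a group had no counts, a fold is given as a lower bound against 3 counts summed over that group, and where it had 1 to 3 counts as the ratio of the higher to the lower group with its counting interval. Such intervals and bounds cover counting error only.

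Among genes of at least 20 CPM in ih_DCTC, Pkp1, which encodes the desmosome protein plakophilin, showed the greatest fitted rise. It measured 122, 42.7 and 23.5 CPM in the ih_DCTC libraries and had no count in MDSC, a difference of at least 560.1-fold (edgeR adjusted p = 1.3e-05). Igf2bp1, an RNA-binding protein of fetal tissue, measured 49.1, 52.8 and 41.6 CPM against none (at least 427-fold, edgeR adjusted p = 1.7e-10). The ligand Wnt5a measured 25.7, 55.1 and 33.1 CPM and the adaptor Shc2 46.8, 27.9 and 26.9 CPM, both with no count in MDSC. These 4 genes were present in each ih_DCTC library and in none of MDSC. Nlrp2 (45.7, 5.19 and 84.6 CPM) and the kinase Prkg2 (7.22, 58.2 and 67.5 CPM) varied more between the ih_DCTC libraries and also had no count in MDSC.

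The greatest fitted falls were genes of B cells, red cells and granulocytes. Cd22, an inhibitory receptor of B cells, had no count in ih_DCTC and 414, 398 and 408 CPM in MDSC, so its level was at least 4383-fold lower (edgeR adjusted p = 6.3e-09). Alas2, the haem synthesis enzyme of red cell precursors, was at least 4244-fold lower. The myeloid inhibitory receptor Cd300lf was at least 3622-fold lower and Selplg, the ligand of P-selectin on leukocytes, at least 2604-fold. Csf3r, the receptor for the granulocyte growth factor G-CSF, had 1 count in ih_DCTC and 681, 664 and 681 CPM in MDSC, a ratio of 21850 (95% exact counting interval 3922 to 863150).

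By read count alone, Spp1, the secreted phosphoprotein osteopontin, was among the 8 most counted higher genes with a log2 fold change of 2 or more (ENSMUSG00000029304, chromosome 5, 104435118 to 104441050 in the deposited annotation). It measured 2858, 5762 and 11395 CPM in ih_DCTC and 60.5, 58.4 and 57.2 CPM in MDSC, a difference of 6.83 ± 0.62 SE on the log2 scale (edgeR adjusted p = 5.6e-08). The ih_DCTC libraries varied among themselves and all lay far above MDSC. The others of this group were Fn1, Pgk1, Aldoa, Ldha, Col1a2, Gapdh and the elongation factor subunit Eef1g. In the other direction stood S100a9, S100a8, Ngp, Hbb-bs, Lyz2, Ltf, Cd74 and Chil3, most of them granulocyte genes.

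**Figure D2:**
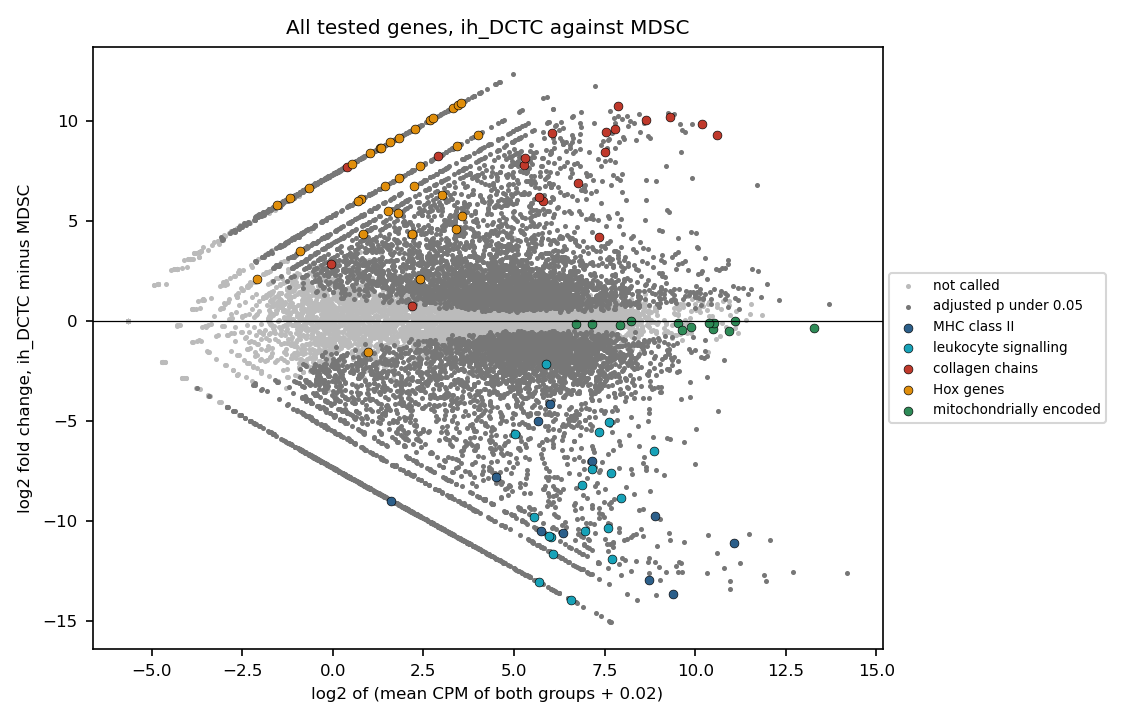
Fitted log2 fold change (ih_DCTC minus MDSC) of each of the 15779 tested genes against log2 of the mean CPM of both groups plus 0.02, with 5 gene lists coloured. MHC class II and leukocyte signalling genes lie below 0, all but 1 Hox gene and all 19 collagen chains lie above 0, and the 13 mitochondrially encoded genes lie near 0. Straight diagonal rows are genes with 0 or a few counts in 1 group.

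**Figure D3:**
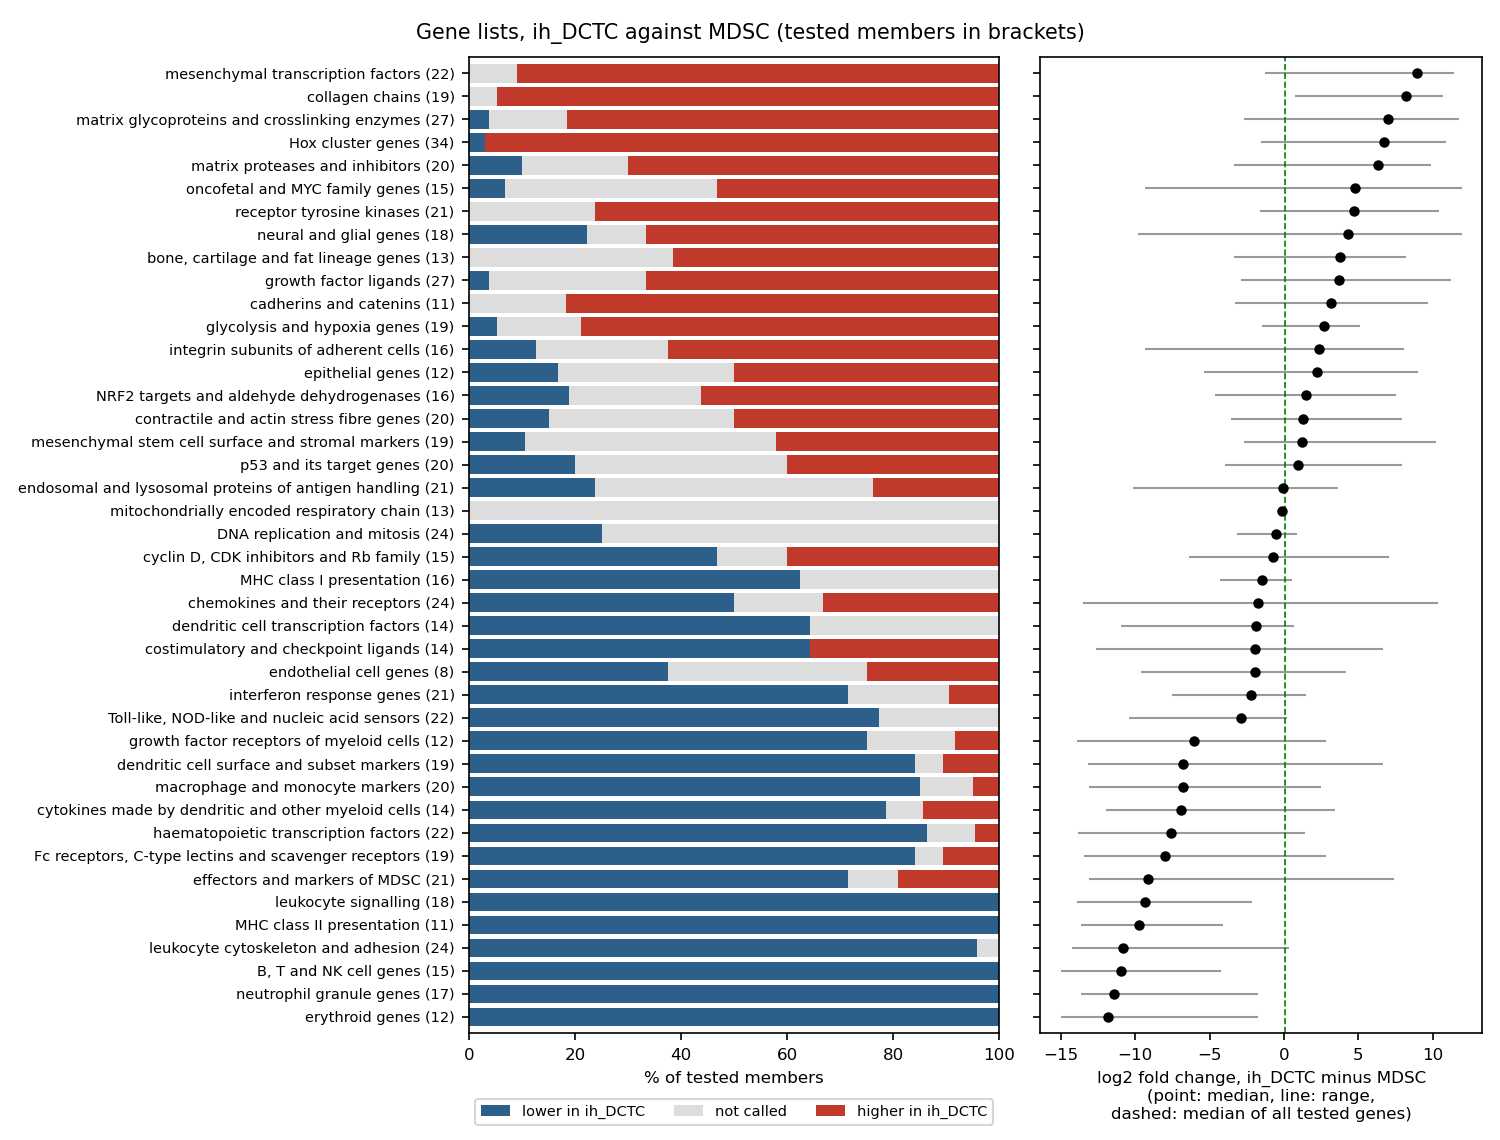
Left, share of tested members called lower, not called or called higher in ih_DCTC (edgeR adjusted p under 0.05), with the number tested in brackets. All of the 43 gene lists are shown except the sex chromosome genes. Right, the median (point) and range (line) of their fitted log2 fold changes, with the median of all tested genes dashed. Mesenchymal transcription factors and collagen chains stand at the top, with medians of 8.94 and 8.24, and erythroid genes at the bottom, with -11.82.

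Of 14 dendritic cell transcription factors, 9 were lower in ih_DCTC and none higher, with a median log2 fold change of -1.85. Spi1, which encodes PU.1 (ENSMUSG00000002111, chromosome 2, 91082390 to 91115756), measured 0.249, 0.0752 and 0.0907 CPM in ih_DCTC and 225, 208 and 229 CPM in MDSC. All ih_DCTC libraries were near the counting floor and the log2 fold change was -10.65 ± 0.66 SE (edgeR adjusted p = 7.9e-10). Irf4, a factor of cDC2 and B cells, measured 0.374, 0.15 and 1.36 CPM against 1288, 1285 and 1248 CPM (-10.96 ± 0.78 SE on the log2 scale, edgeR adjusted p = 3.5e-09). Irf8, the factor of cDC1 and monocytes, differed by -10.11 ± 0.73 SE (edgeR adjusted p = 4.2e-09).

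The remaining members were low or present in both groups. Batf3, a cDC1 factor, measured 1.62, 1.96 and 2 CPM in ih_DCTC and 1.77, 0.601 and 1.07 CPM in MDSC, a log2 difference of 0.69 ± 0.67 SE (edgeR adjusted p = 0.39). Zbtb46, expressed by committed dendritic cells and some endothelium, measured 8.59, 3.08 and 6.71 CPM against 4.97, 5.53 and 6.18 CPM (0.13 ± 0.58 SE, edgeR adjusted p = 0.86). Neither difference exceeded the spread between libraries. The log2 differences of Relb (-0.40), Nfil3 (0.44) and Bcl6 (-0.46) did not pass the test either, although Relb was lower with intron share in the model (-1.67, edgeR adjusted p = 0.00893). Id2, an inhibitor of helix-loop-helix factors that many tissues express, measured 39.3, 9.78 and 11.3 CPM against 78, 76.2 and 84.6 CPM (-1.99 ± 0.67 SE, edgeR adjusted p = 0.017). That call was lost when the second or the third ih_DCTC library was left out.

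Among 19 dendritic cell surface and subset markers, 16 were lower and 2 higher. Flt3, the receptor that drives dendritic cell development, measured 0.374, 0.602 and 0.726 CPM in ih_DCTC and 18.2, 18.9 and 20.1 CPM in MDSC (-5.02 ± 0.81 SE on the log2 scale, edgeR adjusted p = 4.6e-05). Ccr7, the chemokine receptor that brings dendritic cells to lymph nodes, measured 1.62, 0.15 and 1.36 CPM against 704, 687 and 707 CPM (-9.45 ± 0.74 SE, edgeR adjusted p = 1.1e-08). The inhibitory receptor Btla had no count in ih_DCTC against 109.5, 113 and 113 CPM, at least 1205-fold lower. Xcr1, the cDC1 chemokine receptor, measured 2.24, 0.376 and 0.363 CPM against 2.87, 3.25 and 1.92 CPM and did not pass the test (-1.48, edgeR adjusted p = 0.12). Without the first ih_DCTC library it was called lower, at -2.83 on the log2 scale (edgeR adjusted p = 0.00968), and with intron share in the model, at -4.51 (edgeR adjusted p = 0.0382).

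Fscn1, an actin-bundling protein of mature dendritic cells that is also made by mesenchymal, neural and tumour cells, moved the other way (ENSMUSG00000029581, chromosome 5, 142960343 to 142973185). It measured 265, 273 and 188 CPM in ih_DCTC and 2.1, 2.52 and 2.66 CPM in MDSC, a log2 difference of 6.63 ± 0.41 SE (edgeR adjusted p = 7.3e-10). The mean level was 561 ± 139.5 CPM (SD) in C12, the line labelled as transformed macrophages. Bst2, an interferon-induced membrane protein that marks plasmacytoid cells in mice, measured 79.7, 26.7 and 59.6 CPM against 26.4, 21.6 and 25.1 CPM (1.18 ± 0.44 SE, edgeR adjusted p = 0.027). The second ih_DCTC library lay next to the MDSC values.

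All 11 tested genes of MHC class II presentation were lower in ih_DCTC, with a median log2 fold change of -9.74. Ciita, the master transactivator of these genes, had 0, 1 and 1 counts in the ih_DCTC libraries and 107, 108 and 105 CPM in MDSC, a ratio of 1724 (95% exact counting interval 477 to 14241). H2-Ab1, a chain of the class II molecule, measured 1.99, 0.226 and 1.27 CPM against 951, 931 and 975 CPM (-9.74 ± 0.69 SE, edgeR adjusted p = 3.3e-09). Cd74, the invariant chain that guides class II through the cell, measured 1.37, 0.903 and 3.54 CPM against 4345, 4163 and 4424 CPM (-11.11 ± 0.87 SE, edgeR adjusted p = 9.9e-09). The peptide exchange subunits were also lower, H2-DMb2 at 3.11, 1.5 and 2 CPM against 299, 272 and 275 CPM (-7.02 ± 0.37 SE, edgeR adjusted p = 1.3e-10). The smallest difference of the list was that of H2-DMa, at 10.3, 2.78 and 7.8 CPM against 127, 115 and 122 CPM (-4.13 ± 0.49 SE, edgeR adjusted p = 1.6e-06). H2-Ob had a ratio of 1757 (95% exact counting interval 601 to 8525).

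The promoters of these genes are known for a shared X and Y box module, whose Y box binds NF-Y and whose assembled complex recruits the Ciita protein. The Y box core GATTGG was searched on both strands in the 250 bases before the listed start of each gene, in the RefSeq promoter table for GRCm38.p6. It was found in 7 of the 8 class II promoters in that table (87.5%), against 15.1% of all 27025 promoters, 18.5% of those of genes called higher and 18.2% of those called lower. The promoter without these letters was that of H2-DMa. The 150 bases before the start of 3 members are shown because these genes moved together, with GATTGG or its reverse complement in capitals. They are H2-Aa (chr17:34287824-34287973, minus strand), H2-Eb1 (chr17:34305717-34305866, plus strand) and H2-DMb2 (chr17:34145099-34145248, plus strand), each written 5′ to 3′ along the gene.
H2-Aa: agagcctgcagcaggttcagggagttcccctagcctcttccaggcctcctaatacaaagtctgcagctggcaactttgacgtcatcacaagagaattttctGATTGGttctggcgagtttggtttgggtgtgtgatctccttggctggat
H2-Eb1: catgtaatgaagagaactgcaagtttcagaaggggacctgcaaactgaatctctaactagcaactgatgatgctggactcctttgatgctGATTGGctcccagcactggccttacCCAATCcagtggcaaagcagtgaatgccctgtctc
H2-DMb2: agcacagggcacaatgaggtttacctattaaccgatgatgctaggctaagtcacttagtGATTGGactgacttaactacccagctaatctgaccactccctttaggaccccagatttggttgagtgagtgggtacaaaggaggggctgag
The most upstream match began 49, 60 and 91 bases before the start, respectively, and H2-Eb1 held a further match on the other strand. A match describes these letters and is not evidence that a factor binds there.

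MHC class I genes had smaller differences. Of 16 tested, 10 were lower and none higher, with a median log2 fold change of -1.47. B2m, the common light chain of class I molecules, measured 729.7, 405 and 774 CPM in ih_DCTC and 1749, 1856 and 1832 CPM in MDSC (-1.51 ± 0.27 SE, edgeR adjusted p = 0.00012). The immunoproteasome subunit Psmb9 differed by -3.58 ± 0.51 SE (edgeR adjusted p = 1.3e-05) and the peptide transporter Tap1 by -3.08 ± 0.41 SE (edgeR adjusted p = 6.1e-06). The general chaperones of the list were not called, although Pdia3 (0.55) was higher with upper quartile scaling (0.77, edgeR adjusted p = 0.0162), in the fit of both groups alone (0.63, edgeR adjusted p = 0.0484) and with intron share in the model (0.82, edgeR adjusted p = 0.0424), and Canx (0.50) with intron share included (1.48, edgeR adjusted p = 0.000141). Calr measured 2221, 901 and 590.2 CPM against 832, 851 and 873 CPM, and the log2 difference of Tapbp was 0.40 (edgeR adjusted p = 0.32), and 0.74 without the second ih_DCTC library (edgeR adjusted p = 0.0368).

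Endosomal and lysosomal genes split evenly, with 5 of 21 higher, 5 lower and a median of -0.04, shares that are below those of all tested genes. Ctss, the protease that trims the invariant chain in antigen-presenting cells, measured 0.125, 0.376 and 0.454 CPM in ih_DCTC and 382, 381 and 390.5 CPM in MDSC (-10.12 ± 0.61 SE, edgeR adjusted p = 5.8e-10). Ctsl, a cathepsin of many adherent cells, measured 2304, 2055 and 1667 CPM against 156, 164 and 165 CPM (3.63 ± 0.40 SE, edgeR adjusted p = 6.6e-07). The 2 cathepsins thus stood in opposite order in the groups. Cd63, a membrane protein of late endosomes, measured 1559.6, 487 and 927 CPM against 96.3, 96.7 and 104 CPM (3.33 ± 0.52 SE, edgeR adjusted p = 3.8e-05). The thiol reductase Ifi30 was lower (-2.96 ± 0.45 SE, edgeR adjusted p = 2.3e-05) and the cholesterol carrier Npc2 higher (1.80 ± 0.36 SE, edgeR adjusted p = 0.00037). Without the third ih_DCTC library 3 members were higher in place of 5.

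Receptors that take up and sense microbes were nearly all lower. Of 19 Fc receptors, C-type lectins and scavenger receptors, 16 were lower and 2 higher, and of 22 Toll-like, NOD-like and nucleic acid sensors, 17 were lower and none higher. Clec5a, which couples to Dap12 on myeloid cells, had no count in ih_DCTC and was at least 1462-fold lower. Clec4e, the receptor for mycobacterial cord factor, had a ratio of 4584 (95% exact counting interval 1568 to 22232). Lrp1, a scavenger receptor also found on fibroblasts, moved the other way, at 1185, 867 and 1853 CPM against 189, 174 and 177 CPM (2.85 ± 0.35 SE, edgeR adjusted p = 2.3e-06). Of the sensors, Tlr8 had no count in ih_DCTC (at least 175-fold lower) and Tlr13, which senses bacterial ribosomal RNA, differed by -10.38 ± 0.64 SE (edgeR adjusted p = 2.5e-09). The lipopolysaccharide receptor Tlr4 differed by -1.14 ± 0.51 SE and did not pass the test (edgeR adjusted p = 0.065). It was called lower with relative log expression scaling (-1.29, edgeR adjusted p = 0.037), with DESeq2 (-1.29, adjusted p = 0.0254) and without the third ih_DCTC library (-1.53, edgeR adjusted p = 0.0351).

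Costimulatory and checkpoint ligands moved in both directions. Of 14 tested, 5 were higher and 9 lower. Cd276 (B7-H3), a checkpoint ligand of many solid tumours, measured 86.9, 45.4 and 63.4 CPM in ih_DCTC and 0.442, 1.08 and 0.426 CPM in MDSC (6.64 ± 0.45 SE, edgeR adjusted p = 1.8e-09). The nectin family ligands Nectin2 (108, 61 and 93.4 CPM against 1.32, 1.44 and 1.6 CPM) and Pvr (235, 127 and 167 CPM against 9.83, 10.8 and 9.7 CPM) were higher too, by 5.89 and 4.12 on the log2 scale. The T cell costimulator Cd86 had no count in ih_DCTC. Cd274, which encodes PD-L1, measured 0.374, 1.58 and 1.27 CPM against 263, 252 and 256 CPM (-7.83 ± 0.61 SE, edgeR adjusted p = 1e-08), and Icosl differed by -5.45 ± 0.34 SE (edgeR adjusted p = 6.3e-10). The other higher members were Tnfsf9 (2.61 ± 0.39 SE, edgeR adjusted p = 2.3e-05) and Cd200 (1.69 ± 0.65 SE, edgeR adjusted p = 0.034).

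Of 14 cytokines made by dendritic and other myeloid cells, 11 were lower and 2 higher. Il1b measured 0.125, 0.301 and 0 CPM in ih_DCTC and 643, 674 and 669 CPM in MDSC (-11.98 ± 0.63 SE, edgeR adjusted p = 1.3e-10). Il12a, a subunit of the T helper cytokine IL-12, had no count in ih_DCTC and was at least 284-fold lower. The 2 higher genes rested on the third ih_DCTC library. Il6 measured 13.7, 36.6 and 288 CPM against 13.9, 15.2 and 17.6 CPM (2.86 ± 0.85 SE, edgeR adjusted p = 0.0093), and without that library the log2 difference was 0.70 (edgeR adjusted p = 0.352). Il1a measured 11.7, 22.2 and 311 CPM against 11.4, 11.7 and 9.06 CPM (3.43 ± 0.95 SE, edgeR adjusted p = 0.0049), and without it 0.67 (edgeR adjusted p = 0.374). Il18 was low in both groups and not called.

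Of 12 growth factor receptors of myeloid cells, 9 were lower and 1 higher. Csf2rb, the shared receptor chain for GM-CSF, IL-3 and IL-5, had 2 counts in ih_DCTC against 245, 235 and 239 CPM in MDSC, a ratio of 3874 (95% exact counting interval 1072 to 31995). The ligand-binding chain Csf2ra differed by -5.26 ± 0.42 SE (edgeR adjusted p = 1.1e-08). Il6st, the gp130 signalling chain that most tissues express, measured 409, 751 and 501 CPM against 73.9, 79.2 and 84.5 CPM (2.81 ± 0.55 SE, edgeR adjusted p = 0.00034). Il3ra (1.03, edgeR adjusted p = 0.066) and Il4ra (-0.56, edgeR adjusted p = 0.2) were not called. Il3ra was higher without the second ih_DCTC library (1.44, edgeR adjusted p = 0.00658) and with upper quartile scaling (1.26, edgeR adjusted p = 0.028), and Il4ra was lower with intron share in the model (-1.47, edgeR adjusted p = 0.00782).

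Chemokines and their receptors were another mixed group. Of 24 tested, 8 were higher and 12 lower, and 6 of the 12 lower ones were receptors. Cxcl5, a neutrophil attractant (ENSMUSG00000029371, chromosome 5, 90759299 to 90761625), measured 509, 894 and 2688 CPM in ih_DCTC and 0.552, 1.32 and 1.17 CPM in MDSC (10.38 ± 1.10 SE, edgeR adjusted p = 3.9e-07). The monocyte attractants Ccl2 (336, 884 and 1899.9 CPM against 45.3, 44.2 and 45.6 CPM) and Ccl7 (174, 339 and 813 CPM against 1.77, 1.44 and 2.02 CPM) were higher by 4.53 and 7.97 on the log2 scale. For these 3 genes the third ih_DCTC library was the highest and the groups did not overlap. Cxcl1 measured 383, 248 and 1656 CPM against 24, 21.6 and 24.1 CPM (5.04 ± 0.67 SE, edgeR adjusted p = 6.3e-06). On the receptor side, Cxcr4 measured 0, 0.527 and 0.0907 CPM against 1483, 1472 and 1486 CPM (-12.54 ± 0.66 SE, edgeR adjusted p = 1.3e-10). Cxcr2, the receptor for Cxcl1 and Cxcl5, had no count in ih_DCTC and was at least 1541-fold lower. Ackr3, an atypical receptor for Cxcl12, was higher (2.67 ± 0.37 SE, edgeR adjusted p = 9.9e-06).

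**Figure D4:**
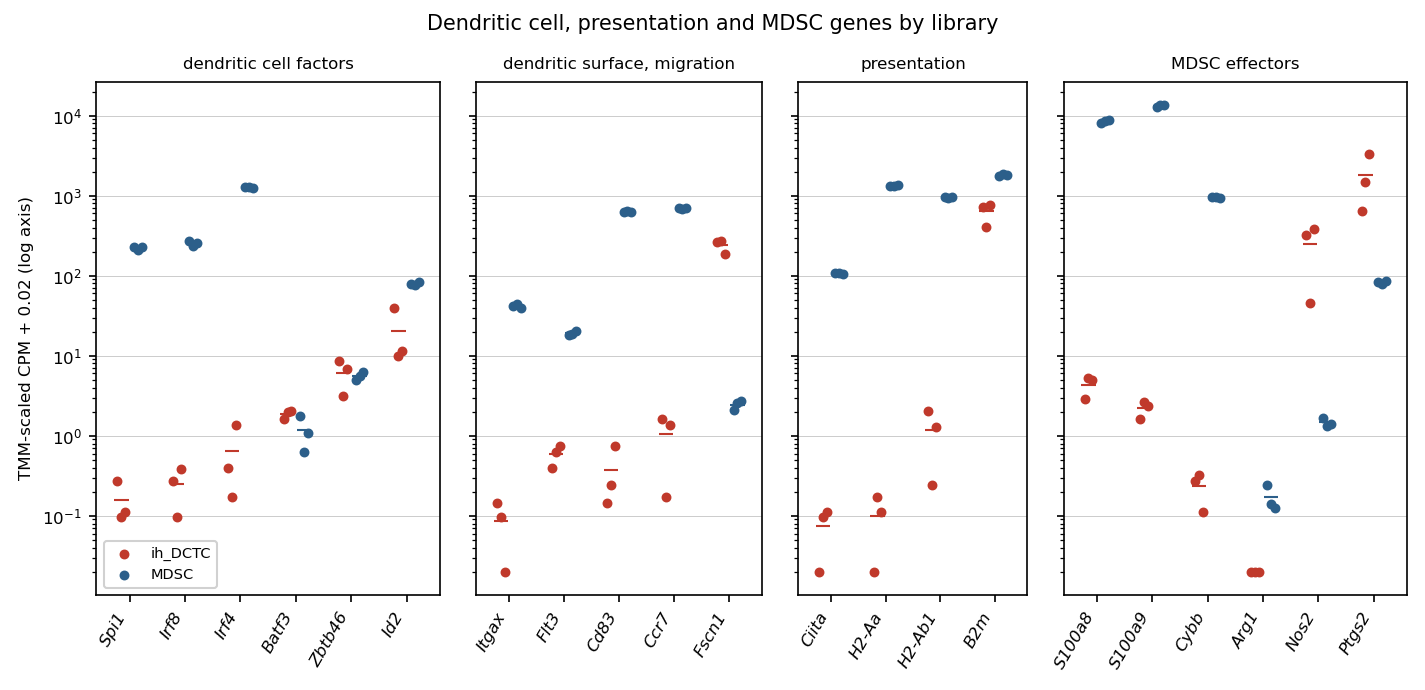
TMM-scaled CPM plus 0.02 on a log axis for dendritic cell, antigen presentation and MDSC genes, 1 dot for each library and a short line for each group mean. The ih_DCTC libraries lie below MDSC for Spi1, Irf8, Irf4, Ccr7, Ciita and H2-Ab1, overlap it for Batf3 and Zbtb46, and lie above it for Fscn1, Nos2 and Ptgs2.

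The lower levels extended to genes that nearly all leukocytes share. Of 24 cytoskeleton and adhesion genes of leukocytes, 23 were lower, with a median of -10.83, and of 18 signalling genes all were, with -9.33. Fgr, a SRC family kinase of myeloid cells, had no count in ih_DCTC against 192, 183 and 196 CPM in MDSC, a level at least 2053-fold lower (edgeR adjusted p = 2.2e-10). The kinase Lyn had a ratio of 4496 (95% exact counting interval 1538 to 21804). Tyrobp, the Dap12 adaptor, measured 0.498, 0.0752 and 0 CPM against 241, 251 and 248 CPM (-10.48 ± 0.80 SE, edgeR adjusted p = 7.1e-09). Evl, an actin regulator that other tissues also express, was the member not called, at 86.3, 54.5 and 70.7 CPM against 56, 54.3 and 58.8 CPM (edgeR adjusted p = 0.33).

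PU.1 binds purine-rich sites with the core GAGGAA, which was searched in the same promoter windows on both strands. It was present in 8 of 17 promoters of the cytoskeleton and adhesion list (47.1%) and in 1 of 12 of the signalling list (8.33%). Its share was 23.1% of all promoters, 26.3% of those of genes called lower and 20.6% of those called higher. The 2 lists lay on either side of the share of all promoters.

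Of 22 haematopoietic transcription factors, 19 were lower and 1 higher. Ikzf1, the lymphoid and myeloid factor Ikaros, differed by -11.86 ± 0.64 SE (edgeR adjusted p = 1.7e-10). Its relative Ikzf3 had no count in ih_DCTC and was at least 1926-fold lower, and the erythroid and platelet factor Nfe2 had a ratio of 5050.0 (95% exact counting interval 906 to 199490). Runx1, needed for blood stem cell formation and also made by mesenchymal cells, did not differ beyond the spread, at 91.4, 62 and 97.7 CPM in ih_DCTC and 86.6, 78.8 and 86.2 CPM in MDSC. Gata2 differed by 0.39 ± 0.29 SE (edgeR adjusted p = 0.26), and without the second ih_DCTC library it was called higher (0.66, edgeR adjusted p = 0.0418). Meis1, a homeobox partner of Hox proteins, was the member called higher, at 10.6, 8.43 and 14.3 CPM against 3.86, 4.21 and 4.47 CPM (1.41 ± 0.35 SE, edgeR adjusted p = 0.0025).

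Of 21 effectors and markers of MDSC, 15 were lower in ih_DCTC and 4 higher. S100a9, an alarmin of neutrophils and monocytes, measured 1.62, 2.63 and 2.36 CPM in ih_DCTC and 12728, 13639 and 13671 CPM in MDSC (-12.54 ± 0.86 SE, edgeR adjusted p = 2e-09). Cybb, the NADPH oxidase subunit, differed by -12.03 ± 0.63 SE (edgeR adjusted p = 1.3e-10), and Ly6g, the granulocyte antigen, was at least 1135-fold lower with no count in ih_DCTC. Arg1, the arginase by which MDSC are best known, was near 0 in both groups and was not tested, with no count in ih_DCTC and 0.221, 0.120 and 0.107 CPM in MDSC.

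The 4 higher members were 2 enzymes, a transcription factor and a surface antigen, all of which other cells also make. Nos2, the inducible nitric oxide synthase (ENSMUSG00000020826, chromosome 11, 78920787 to 78960254), measured 322, 45.4 and 386 CPM in ih_DCTC and 1.66, 1.32 and 1.39 CPM in MDSC (7.42 ± 1.37 SE, edgeR adjusted p = 0.00018). Ptgs2, the cyclooxygenase of prostaglandin synthesis, measured 638, 1496 and 3315 CPM against 83.4, 79.6 and 86.1 CPM (4.45 ± 0.68 SE, edgeR adjusted p = 2.8e-05). Nos2 was lowest in the second ih_DCTC library and Ptgs2 in the first of them, and neither gene's groups overlapped. Ly6c1, found on endothelial and mesenchymal cells as well as monocytes, measured 39, 37.5 and 41.9 CPM against 0.552, 0.601 and 0.746 CPM (5.93 ± 0.74 SE, edgeR adjusted p = 2.6e-06), whereas its neighbour Ly6c2 differed by -10.66 ± 0.85 SE (edgeR adjusted p = 1.2e-08). These paralogs are similar in sequence and reads may be split between them. Hif1a measured 170.0, 453 and 970.3 CPM against 138, 134 and 133 CPM (1.98 ± 0.65 SE, edgeR adjusted p = 0.015), and without the third ih_DCTC library the log2 difference was 1.21 (edgeR adjusted p = 0.122). The myeloid and stress factor Cebpb differed by 1.02 ± 0.48 SE and was not called (edgeR adjusted p = 0.074), but it was higher without the second ih_DCTC library (1.44, edgeR adjusted p = 0.00762) and with upper quartile scaling (1.26, edgeR adjusted p = 0.0333).

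All 17 neutrophil granule genes were lower, with a median of -11.42 (-10.56 with genes at 0 set to their bounds). Ngp differed by -12.99 ± 0.84 SE (edgeR adjusted p = 1.1e-09) and the collagenase Mmp8 had a ratio of 17900 (95% exact counting interval 3212 to 707060). Lcn2, an iron-trapping protein that other tissues induce in inflammation, kept more RNA, at 185, 132 and 642 CPM against 2236, 2220.2 and 2300.4 CPM (-2.82 ± 1.05 SE, edgeR adjusted p = 0.029), a call that was lost without the first or the second of the ih_DCTC libraries, without the third MDSC library and in 4 other alternatives. Of 20 macrophage and monocyte markers, 17 were lower and 1 higher. Lysozyme Lyz2 measured 4.86, 2.86 and 2.99 CPM against 5502, 5750.4 and 5765 CPM (-10.64 ± 0.63 SE, edgeR adjusted p = 4.5e-10). Trem2, a lipid receptor of tissue macrophages, was the higher one, at 52.9, 11 and 41.5 CPM against 6.74, 5.89 and 6.07 CPM (2.49 ± 0.62 SE, edgeR adjusted p = 0.0023). Vcam1 and Mertk were not called.

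The MDSC libraries also carried RNA of B cells and red cells. All 15 genes of a B, T and NK cell list and all 12 erythroid genes were lower in ih_DCTC. Summed over the list, lymphoid genes came to 8.47 to 22.3 CPM in ih_DCTC and 38061 to 39864 CPM in MDSC, and 9 members had no count in ih_DCTC. The erythroid sums were 10.4 to 16.7 CPM and 16847 to 17662 CPM. Ighm, the IgM heavy chain of B cells, measured 5.73, 6.02 and 6.08 CPM against 36363, 36778 and 38141 CPM (-12.60 ± 0.81 SE, edgeR adjusted p = 9.5e-10) and took 3.31% to 3.44% of all counts in each MDSC library. The globin Hbb-bs differed by -12.68 ± 0.59 SE (edgeR adjusted p = 5.5e-11). The part of these cells in the differences of other genes was not tested.

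Matrix genes were widely higher in ih_DCTC. Of 19 collagen chains 18 were higher and none lower, with a median log2 fold change of 8.24, and their summed level was 7631 to 12967 CPM in ih_DCTC against 36.9 to 37.5 CPM in MDSC. Col1a1, a chain of type I collagen (ENSMUSG00000001506, chromosome 11, 94936224 to 94953042), measured 2644, 2123 and 2268 CPM against 2.43, 2.77 and 2.34 CPM (9.86 ± 0.68 SE, edgeR adjusted p = 2.3e-09). Col6a3, a chain of the beaded filaments around cells, measured 569, 549 and 275 CPM against 0.552, 0.12 and 0.107 CPM (10.73 ± 1.26 SE, edgeR adjusted p = 1.4e-06). The groups lay far apart for each. Col3a1 and Col6a1 differed by 10.18 and 10.04 on the log2 scale.

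Of 27 matrix glycoproteins and crosslinking enzymes, 22 were higher and 1 lower. Fibronectin, Fn1, measured 6366, 3205 and 6179.8 CPM in ih_DCTC and 886, 884 and 846 CPM in MDSC (2.59 ± 0.49 SE, edgeR adjusted p = 0.00022). Sparc, a collagen-binding glycoprotein, measured 1109, 696 and 802 CPM against 1.99, 1.2 and 1.39 CPM (9.14 ± 0.46 SE, edgeR adjusted p = 1e-10). Decorin, Dcn, measured 656, 808 and 2210.0 CPM against 0.331, 1.56 and 0.852 CPM (10.38 ± 1.20 SE, edgeR adjusted p = 1.2e-06), with the third ih_DCTC library the highest. Mgp, an inhibitor of calcification, had a ratio of 3763 (95% exact counting interval 1042 to 31080). Thbs1, a matrix protein also released by platelets and monocytes, went the other way, at 55.7, 88.3 and 187 CPM against 721, 725 and 689.9 CPM (-2.69 ± 0.79 SE, edgeR adjusted p = 0.0076).

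Among 20 matrix proteases and inhibitors, 14 were higher and 2 lower. Timp1, an inhibitor of metalloproteinases, measured 334, 118 and 227 CPM in ih_DCTC and 0.331, 0.12 and 0.213 CPM in MDSC (9.91 ± 0.78 SE, edgeR adjusted p = 1e-08). Stromelysin Mmp3 had a ratio of 1092 (95% exact counting interval 373 to 5297), and the gelatinase Mmp2 differed by 9.19 ± 0.75 SE (edgeR adjusted p = 1.7e-08). The urokinase system was the exception. Its receptor Plaur measured 92.9, 94 and 66.5 CPM against 849, 823 and 873 CPM (-3.33 ± 0.38 SE, edgeR adjusted p = 1.1e-06) and the protease Plau differed by -1.86 ± 0.54 SE (edgeR adjusted p = 0.0071).

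Of 22 mesenchymal transcription factors, 20 were higher and none lower, with a median of 8.94 (8.28 with genes at 0 set to their bounds). Twist1, a factor of mesoderm and of epithelial-mesenchymal transition, measured 160.5, 118 and 183 CPM in ih_DCTC and 0.221, 0.361 and 0.213 CPM in MDSC (9.13 ± 0.45 SE, edgeR adjusted p = 8.8e-11). Prrx1, a limb mesenchyme factor, measured 473, 818 and 791 CPM against 0.663, 0.361 and 0.533 CPM (10.35 ± 0.53 SE, edgeR adjusted p = 1.2e-10). Snai2 measured 16.3, 28.4 and 54.2 CPM and had no count in MDSC, at least 294-fold higher (edgeR adjusted p = 4.7e-07). Zeb1 (-0.61) and Zeb2 (-1.29), which blood cells also express, were the members not called, although Zeb2 was called lower with relative log expression scaling (-1.44) and without the third ih_DCTC library (-1.72).

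Mesenchymal surface markers were mixed, with 8 of 19 higher, 2 lower and 9 not called. Pdgfra, the receptor of mesenchymal progenitors, measured 529, 428 and 566 CPM in ih_DCTC and 0.773, 0.481 and 0.107 CPM in MDSC (10.10 ± 0.63 SE, edgeR adjusted p = 7.9e-10). The BMP antagonist Grem1 differed by 10.24 ± 1.14 SE (edgeR adjusted p = 6.8e-07) and the proteoglycan Cspg4 had a ratio of 1318 (95% exact counting interval 236 to 52080). Thy1 was lower, at 0.374, 0.376 and 4.9 CPM against 11.9, 10.8 and 13.5 CPM (-2.66 ± 0.66 SE, edgeR adjusted p = 0.0022). The hyaluronan receptor Cd44 measured 218, 398 and 294 CPM against 621, 617 and 627 CPM (-1.03 ± 0.40 SE, edgeR adjusted p = 0.036).

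Contractile genes moved in both directions as well. Of 20 tested, 10 were higher and 3 lower. Tropomyosin Tpm2 and caldesmon Cald1 differed by 7.93 ± 0.49 SE and 7.77 ± 0.44 SE. Acta2, the smooth muscle actin of myofibroblasts, measured 1.62, 1.43 and 15.1 CPM in ih_DCTC and 7.84, 8.42 and 9.48 CPM in MDSC and was not called (edgeR adjusted p = 0.61), the third ih_DCTC library being above MDSC and the others below. Without that library Acta2 was called lower, at -2.49 on the log2 scale (edgeR adjusted p = 0.0134). Tagln, another smooth muscle marker, was lower, at 0.623, 0.301 and 0.272 CPM against 3.2, 5.77 and 4.58 CPM (-3.53 ± 0.51 SE, edgeR adjusted p = 1.4e-05). Nonmuscle myosin Myh9 (-0.82 ± 0.27 SE, edgeR adjusted p = 0.015) and filamin Flna (-0.96 ± 0.30 SE, edgeR adjusted p = 0.01) were slightly lower.

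Of 16 integrin subunits of adherent cells, 10 were higher and 2 lower. Itga7, a laminin receptor subunit, differed by 7.44 ± 0.79 SE (edgeR adjusted p = 4e-07), and Itga11, a collagen receptor subunit of fibroblasts, had a ratio of 325 (95% exact counting interval 58 to 12873). Itga4, which leukocytes use to cross vessel walls, was lower, at 0, 0.226 and 1.54 CPM against 411, 408 and 409 CPM (-9.36 ± 0.91 SE, edgeR adjusted p = 1.3e-07). Among 11 cadherins and catenins, 9 were higher and none lower. N-cadherin, Cdh2, differed by 8.01 ± 0.50 SE (edgeR adjusted p = 7.9e-10) and Cdh13 had a ratio of 860.3 (95% exact counting interval 238 to 7108), whereas E-cadherin, Cdh1, differed by -1.39 ± 0.78 SE and was not called (edgeR adjusted p = 0.13). Without the third ih_DCTC library Cdh1 was lower, at -2.83 on the log2 scale (edgeR adjusted p = 0.00983).

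Receptor tyrosine kinases were widely higher, 16 of 21, and none was lower. Axl, the Gas6 receptor, measured 477, 675 and 561 CPM in ih_DCTC and 31.7, 34.5 and 29.7 CPM in MDSC (4.16 ± 0.35 SE, edgeR adjusted p = 2.1e-08). Met, the receptor for hepatocyte growth factor, measured 37.6, 91.6 and 84.4 CPM against 8.06, 9.02 and 9.06 CPM (3.03 ± 0.55 SE, edgeR adjusted p = 0.00016). The collagen receptor Ddr2 measured 73.7, 304 and 306 CPM against 0.11, 0.24 and 0.107 CPM (10.46 ± 0.83 SE, edgeR adjusted p = 1.1e-08). In all 3 genes the first of the ih_DCTC libraries was the lowest and still lay above MDSC. Egfr differed by 6.16 ± 0.81 SE (edgeR adjusted p = 5.1e-06).

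Of 27 growth factor ligands, 18 were higher and 1 lower. Fgf7, a mesenchymal factor that acts on epithelium, measured 146, 364 and 789 CPM in ih_DCTC and 0.552, 0.24 and 0.32 CPM in MDSC (10.13 ± 0.97 SE, edgeR adjusted p = 1.1e-07). The neurotrophin Bdnf (11.7, 28.7 and 49.2 CPM) was not counted in MDSC, which puts it at least 266-fold higher. Lif, which signals through the gp130 chain described above, measured 279, 352 and 987 CPM against 9.39, 7.33 and 7.46 CPM (6.06 ± 0.60 SE, edgeR adjusted p = 1.9e-07). Csf1, the macrophage growth factor, differed by 2.89 ± 0.36 SE (edgeR adjusted p = 3e-06). Igf1, which was lower, differed by -2.86 ± 0.53 SE (edgeR adjusted p = 0.00018).

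**Figure D5:**
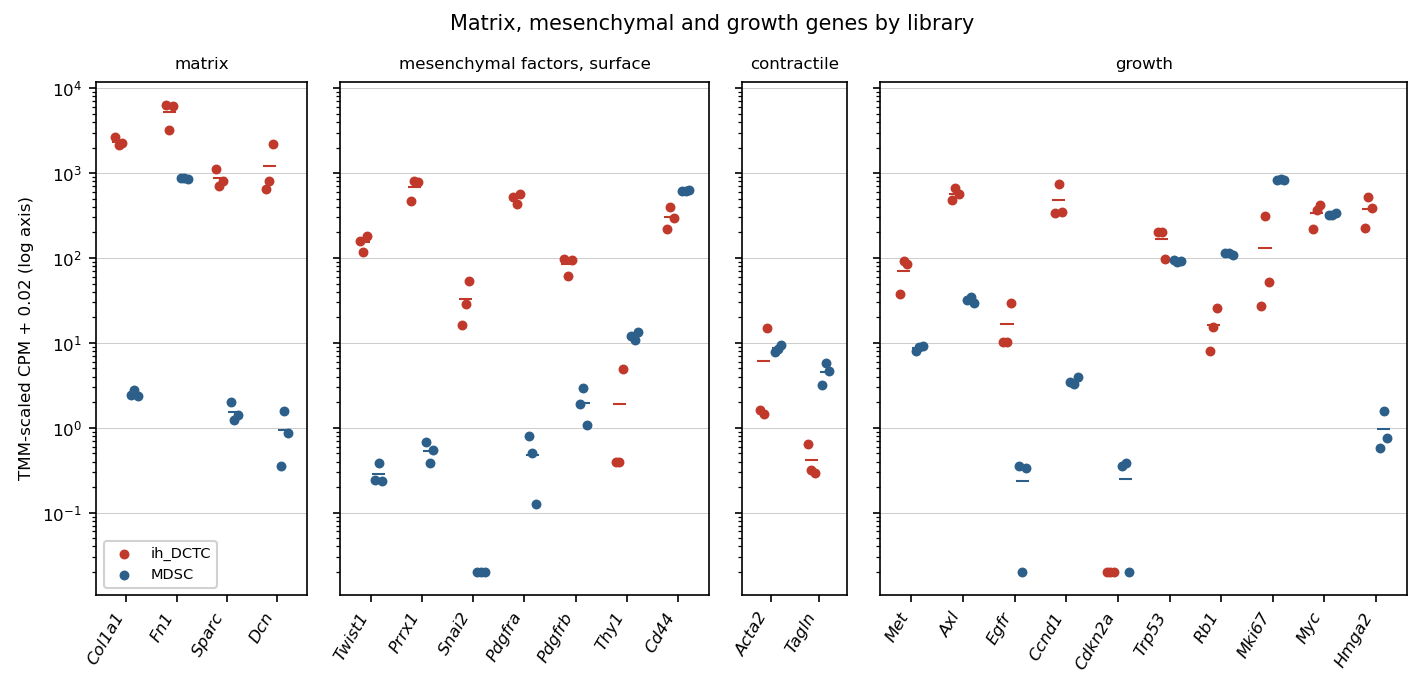
TMM-scaled CPM plus 0.02 on a log axis for matrix, mesenchymal, contractile and growth genes, 1 dot for each library and a short line for each group mean. The groups stand far apart for Col1a1, Sparc, Twist1, Prrx1, Pdgfra, Ccnd1 and Hmga2, while Acta2 and Myc overlap and Thy1, Tagln, Rb1 and Mki67 lie lower in ih_DCTC.

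Of 24 DNA replication and mitosis genes, none was higher and 6 were lower, a share below the 28.1% of all tested genes, and the ih_DCTC libraries differed widely among themselves. Mki67, a nuclear protein of dividing cells, measured 27.1, 316 and 52.1 CPM in ih_DCTC and 832, 860.4 and 834 CPM in MDSC (-2.68 ± 0.80 SE, edgeR adjusted p = 0.0086). The summed level of the list was 1657, 3767 and 940 CPM in the ih_DCTC libraries and 3791 to 3853 CPM in MDSC. The second ih_DCTC library was thus close to MDSC and the other two were well below. Without that library 12 members were lower, without the third 3 were, and with the intron share of each library as a covariate 13 were.

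Regulators of the G1 phase moved in both directions, with 6 of 15 higher and 7 lower. Cyclin D1, Ccnd1 (ENSMUSG00000070348, chromosome 7, 144929931 to 144939869), measured 339, 753 and 347 CPM in ih_DCTC and 3.42, 3.25 and 3.94 CPM in MDSC (7.08 ± 0.54 SE, edgeR adjusted p = 8e-09). On the log2 scale the difference of Ccnd2 was 2.14 and that of Ccnd3, a form much used by haematopoietic cells, -1.45. Rb1, the retinoblastoma protein gene, measured 7.97, 15.5 and 25.5 CPM against 114, 114 and 108 CPM (-2.77 ± 0.66 SE, edgeR adjusted p = 0.0016). Cdkn2a had no count in any ih_DCTC library and 6 counts in all in MDSC, and Cdkn2b likewise had none against 0.994, 0.481 and 0.32 CPM. At the bound, Cdkn2a was at least 2.49-fold and Cdkn2b at least 6.45-fold lower. The call of Cdkn2a was lost when any single library of both groups was left out, except the third of MDSC.

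Of Trp53 and 19 of its targets, 8 were higher and 4 lower. Trp53 itself measured 201, 201 and 96.7 CPM in ih_DCTC and 94.7, 89.3 and 93 CPM in MDSC and was not called (0.85 ± 0.45 SE, edgeR adjusted p = 0.12). It was higher with upper quartile scaling (1.07, edgeR adjusted p = 0.0496) and in the fit of both groups alone (0.94, edgeR adjusted p = 0.0341). Cdkn1a, the p21 inhibitor, measured 584, 207 and 387 CPM against 122, 111 and 109 CPM (1.78 ± 0.38 SE, edgeR adjusted p = 0.00072). Phlda3, an Akt repressor, differed by 7.26 ± 0.60 SE (edgeR adjusted p = 1.7e-08). The lower members included the apoptosis gene Pmaip1 (-3.97 on the log2 scale), the antiproliferative gene Btg2 (-3.67) and Trp53inp1 (-3.33).

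Oncofetal and MYC family genes were higher in 8 of 15 and lower in 1. Hmga2, a chromatin protein of embryonic mesenchyme, measured 228, 529 and 384 CPM in ih_DCTC and 0.552, 1.56 and 0.746 CPM in MDSC (8.64 ± 0.67 SE, edgeR adjusted p = 8.5e-09). Its relative Hmga1 differed by 5.45 ± 0.45 SE (edgeR adjusted p = 2e-08). Lin28b, which blocks let-7 maturation, was at least 12.1-fold higher, while Lin28a had no count in ih_DCTC against 7.51, 8.9 and 7.56 CPM and was at least 86.2-fold lower. Myc measured 217, 369 and 418 CPM against 317, 324 and 338 CPM, a difference within the spread (edgeR adjusted p = 0.95).

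Glycolysis and hypoxia genes were higher in 15 of 19 and lower in 1, with a median of 2.68. Bnip3, a mitophagy receptor induced by hypoxia, measured 581, 381 and 479.5 CPM in ih_DCTC and 13, 15.5 and 12.7 CPM in MDSC (5.13 ± 0.58 SE, edgeR adjusted p = 9.4e-07). Pgk1 measured 3646, 3094 and 3484 CPM against 397, 429 and 423 CPM (3.03 ± 0.40 SE, edgeR adjusted p = 5.9e-06) and Ldha 4367, 3029.5 and 1945 CPM against 478, 479.9 and 501 CPM (2.68 ± 0.64 SE, edgeR adjusted p = 0.0018). The first of the ih_DCTC libraries was the highest in Ldha and in Gapdh (4991, 1823 and 1499 CPM). With the intron share as a covariate 6 of the 19 were higher, and Gapdh (0.16) and Ldha (0.22) were not called. The lactate exporter Slc16a3 was lower (-1.49 ± 0.41 SE, edgeR adjusted p = 0.0049). None of 13 mitochondrially encoded genes was called, with a median of -0.16.

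NRF2 targets and aldehyde dehydrogenases were higher in 9 of 16 and lower in 3. Aldh3a1, which oxidises aldehydes in epithelia, differed by 6.89 ± 1.08 SE (edgeR adjusted p = 3.6e-05), and its mean was 3283 ± 2178 CPM (SD) in C12. The mitochondrial folate enzyme Aldh1l2 differed by 7.51 ± 0.90 SE (edgeR adjusted p = 1.8e-06). Aldh1a1, a retinal-oxidising enzyme, was lower (-4.63 ± 1.46 SE, edgeR adjusted p = 0.012). Interferon response genes were lower in 15 of 21 and higher in 2. Irf7 measured 3.61, 0.978 and 1.81 CPM in ih_DCTC and 83.3, 80.3 and 85.1 CPM in MDSC (-5.31 ± 0.66 SE, edgeR adjusted p = 2.8e-06), and Mx1 had a ratio of 267 (95% exact counting interval 47.5 to 10600). Ifitm3, which adherent cells make at rest, was higher, at 862, 378 and 468 CPM against 208, 197 and 206 CPM (1.48 ± 0.32 SE, edgeR adjusted p = 0.00083).

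Genes of other lineages were examined as markers of cells that the cultures could hold. Of 18 neural and glial genes, 12 were higher and 4 lower. Sox2, a factor of neural stem cells and glioma, measured 48.7, 102 and 36 CPM in ih_DCTC, with 2 counts in all in MDSC, a ratio of 889 (95% exact counting interval 246 to 7348). Fez1, an axon transport adaptor, measured 45.7, 40.9 and 59.3 CPM with no count in MDSC (at least 434-fold higher). Gfap, the astrocyte filament, had no count in ih_DCTC against 4.42, 4.93 and 4.9 CPM. L1cam, an adhesion molecule of axons and some leukocytes, was also lower, with a ratio of 1074 (95% exact counting interval 297 to 8876). Their part in the differences of other genes was not tested.

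Bone, cartilage and fat lineage genes were higher in 8 of 13 and lower in none, with Sox9, the cartilage factor, at 8.19 ± 0.65 SE (edgeR adjusted p = 1.2e-08). Of 12 epithelial genes, 6 were higher and 2 lower, and their summed level was 15.9 to 44.4 CPM in ih_DCTC against 24.8 to 27.4 CPM in MDSC. Krt18 measured 28.8, 1.96 and 11.2 CPM against 2.87, 2.65 and 2.77 CPM (2.32 ± 0.72 SE, edgeR adjusted p = 0.01), and without the first of the ih_DCTC libraries its log2 difference was 1.24 (edgeR adjusted p = 0.137). Of 8 endothelial genes, 2 were higher and 3 lower, with Pecam1, which leukocytes also carry, at -9.61 ± 0.93 SE (edgeR adjusted p = 1.3e-07).

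Hox genes, which keep the positional identity of cells along the body axis, were higher in 33 of 34 tested. The median was 6.74, or 5.61 with genes at 0 set to their bounds, and 15 of the 34 had no count in MDSC. Hoxa11, a gene of the limb and the uterus, measured 26.1, 19.4 and 23.3 CPM in ih_DCTC against none in MDSC, at least 205-fold higher (edgeR adjusted p = 2.5e-08). Hoxc10, a posterior gene, measured 34, 10.2 and 21.2 CPM against none, at least 195-fold higher. Hoxb4, a gene of blood stem cells, was the exception, at 0.498, 1.2 and 1.18 CPM against 2.87, 3.49 and 2.34 CPM (-1.56 ± 0.55 SE, edgeR adjusted p = 0.022), and lost its call without the first of the ih_DCTC libraries or the second MDSC library.

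The distance between ih_DCTC and MDSC was set beside its distance to the other lines. The root mean square difference of group means was 2.54 from MDSC, 0.994 from C12 and 0.532 from ih_BCTC. From the lines labelled ih_CTC and ih_STC_BM it was 0.857 and 0.9325, and from the cells labelled MSC 1.766. The other lines lay 2.505 to 2.527 from MDSC, so that distance was not particular to ih_DCTC. Against C12, whose labels describe peritoneal macrophages transformed in co-culture with SU3, edgeR called 12.2% of tested genes, 6.52% higher and 5.69% lower in ih_DCTC. These comparisons share the ih_DCTC libraries with that against MDSC, so they are given side by side and not as independent results.

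Genes that separated ih_DCTC from C12 were chosen as those with the greatest fitted differences, so their values are a description with no test. Sox2 had 1 count in C12, a ratio of 2059 (95% exact counting interval 369 to 81360), and Stc1, a secreted calcium regulator, also had 1 count there, a ratio of 1873 (95% exact counting interval 336 to 74020). Both lay above C12 in each ih_DCTC library. The Wnt antagonist Dkk2 measured 11.6, 64.1 and 23.2 CPM in ih_DCTC and had no count in C12, at least 340.4-fold higher. Igsf3 measured 17.4, 23.2 and 31.2 CPM, also against none, at least 247-fold higher. Their means in ih_BCTC were 66.3 ± 15 CPM (SD) and 25.1 ± 3.06 CPM (SD). In the other direction the homeobox gene Esx1 had no count in ih_DCTC and 28.6 ± 7.77 CPM (SD) in C12, at least 309-fold lower. The neurotrophin receptor Ngfr had 2 counts against 68.8 ± 37.2 CPM (SD), a ratio of 1043 (95% exact counting interval 288 to 8616).

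Against ih_BCTC, edgeR called 0 genes, 0.0% of those tested in either direction, while 1605 genes had an unadjusted p under 0.05. DESeq2 called 104 genes higher and 3 lower in ih_DCTC. Without the second ih_DCTC library, edgeR called 352 higher and 138 lower.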

How the data were processed

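The authors deposited a table of expected counts per Ensembl gene for 20 mouse RNA-seq libraries, an alignment table and a gene annotation. Per the submitters' processing notes STAR, RSEM 1.2.26 and DESeq2 were used, with no build named (not given in the sources used here). Positions follow the annotation file of the authors, where 33583 of the 42548 gene identifiers also found in GENCODE M21 had identical positions. RSEM divides reads between similar genes, so values of near-identical family members (class II chains, Ly6c, globins) are uncertain. The strand setting of the counting is likewise unknown here.

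The 8.37% of values that were not whole were rounded. Genes were kept by filterByExpr (minimum count 10, minimum total 15), scaled by TMM in edgeR 4.0.16 (R 4.3.3, limma 3.58.1) and fitted with robust quasi-likelihood as group means of all 20 libraries (13 residual degrees of freedom). Tests were two-sided with Benjamini-Hochberg adjustment over 15779 genes at 0.05. On simulated counts for ih_DCTC against MDSC the test called 3 of 64 genes changed 2-fold, 28 of 65 changed 4-fold, 57 of 65 changed 16-fold and 0 of 14769 unchanged genes. The simulation changed few genes and gave each gene the same spread in all groups. In the data 59.3% of tested genes were called and the spread differed between groups, so these counts do not carry over. A count of 0 in a group allows up to 0.0927 CPM in ih_DCTC and 0.112 CPM in MDSC (3 counts). Tables used Python 3.11.15 with pandas 2.3.3, numpy 2.4.6 and scipy 1.17.1, and figures matplotlib 3.10.9.

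The 43 gene lists (788 genes, 748 tested), the named genes and the comparisons were chosen with earlier results of these data known, so no list is independent evidence. Named were, by rule, the 8 greatest rises and falls of at least 20 CPM without overlap, the 8 most counted genes per direction with a log2 change of at least 2, up to 3 called members per list and direction of at least 5 CPM, exceptions in blood cell lists, a fixed panel of 40 genes, and 4 genes per direction against C12. Predicted genes, pseudogenes, immunoglobulin segments and ribosomal protein genes were left out of the genes chosen by size. Some genes that the rule names are not reported here. Cdh1, Cdkn1a, Cdkn2b, Csf1, Csf2ra, Gfap, H2-DMa, H2-DMb2, H2-Ob, Hmga1, Hoxb4, Igf1, Lcn2, Lif, Lin28b, Ly6c2, Tagln, Tap1, Xist, Zeb1 and Zeb2 fall outside it and were chosen after their values were seen. The alternatives were 2 other scalings, no filter, DESeq2 1.42.0, a fit of the compared groups alone, the intron share as a covariate, glmTreat at a log2 fold change of 1, leaving out each library and, chosen after seeing the data, the MDSC libraries summed to 1.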

Additional observations from a re-analysis of the deposited data

Results flagged for a closer look

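The ih_DCTC and C12 lines, both described as products of co-culture with SU3, were compared in edgeR at the 196 genes named above that were not chosen for their difference from C12. Of these, 35 differed (17.9% against 12.2% of all tested genes), 24 of them higher and 11 lower in ih_DCTC. Many of the 196 were named for their ih_DCTC values against MDSC, and both comparisons use the same ih_DCTC libraries. The share and the direction may therefore be partly set by that choice and are a description only. Values are fitted log2 differences, ih_DCTC minus C12, and for genes with few counts in a group they depend on the prior count and are no bound. Matrix and mesenchymal genes higher in ih_DCTC were Mgp (9.43), Dcn (6.47), Mmp3 (6.45), Cxcl12 (3.61), Itga7 (3.05), Col3a1 (2.51), Prrx1 (2.45), Vcam1 (2.24), Pdgfra (1.85), Timp1 (1.76) and Twist1 (1.15). Higher cytokine and inflammatory genes were Il1a (8.0), Il6 (7.07), Lif (4.77), Ptgs2 (3.31), Cxcl1 (1.84) and Ackr3 (1.23). The dendritic cell genes Xcr1 (4.47), Zbtb46 (3.78) and Nfil3 (1.79) were also higher, as were Nlrp2 (9.21), Hoxc10 (6.78), Bnip3 (2.69) and Pvr (2.09). In ih_BCTC, a line not labelled dendritic, Xcr1, Zbtb46 and Nfil3 averaged 1.18, 4.01 and 58.6 CPM. Their means in ih_DCTC were 0.993, 6.13 and 122.6 CPM. The dendritic cell factors Batf3 (0.21), Irf4 (-0.70), Irf8 (-0.49) and Spi1 (-0.57) were not called against C12. Lower in ih_DCTC were L1cam (-7.77), Csf2rb (-7.55), Aldh3a1 (-5.60), Pecam1 (-3.36), Cd74 (-2.74), Lyz2 (-2.29), Il18 (-1.94), Fscn1 (-1.21), Flna (-1.06), H2-DMb2 (-1.03) and Myh9 (-1.02).

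None of the 35 changed sign in the alternatives run, except that 1 was not tested in the fit of both groups alone. That fit ended 11 of the calls and glmTreat 15. Leaving out C12 replicate 1, 2 or 3 ended 10, 12 and 3 of the calls, and leaving out ih_DCTC replicate 1, 2 or 3 ended 5, 4 and 8. Those lost when at least 1 of these libraries was left out were Ackr3, Col3a1, Cxcl1, Cxcl12, Flna, Fscn1, H2-DMb2, Il18, Myh9, Pdgfra, Pecam1, Timp1, Twist1 and Xcr1. Nfil3 also lost its call in the fit of both groups alone and with glmTreat, and Ptgs2 in the fit of both groups alone. Csf2rb, the receptor chain nearly absent from ih_DCTC, averaged 13.8 ± 10.5 CPM (SD) in C12 and 239 ± 5.04 CPM (SD) in MDSC. Zbtb46 averaged 6.13 ± 2.8 CPM (SD) in ih_DCTC, 0.444 ± 0.212 CPM (SD) in C12 and 5.56 ± 0.606 CPM (SD) in MDSC.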

How the results depend on the processing

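Against MDSC, 3279 genes were higher in ih_DCTC with glmTreat, and 2896 were higher and 3390 lower with the MDSC libraries summed to 1, an alternative chosen after seeing the data. Leaving out 1 library gave 4226 to 4775 higher and 3947 to 4275 lower genes. Relative log expression scaling gave 4489 higher and 4795 lower genes and upper quartile scaling 5625 and 3925. Against C12, the fit of both groups alone gave 393 higher and 356 lower genes, glmTreat 470 and 406, and leaving out 1 library 588 to 1649 higher and 585 to 1165 lower. Of these, 588 and 585 were without C12 replicate 1, 616 higher without C12 replicate 2, 1649 higher without C12 replicate 3 and 593 lower without ih_DCTC replicate 2. Against ih_BCTC, DESeq2 called 104 higher and 3 lower, and leaving out 1 library gave 0 to 352 higher and 0 to 138 lower, with 352 and 138 without ih_DCTC replicate 2 and 1 lower without ih_BCTC replicate 2. With the intron share as a covariate Cst3 moved to -0.13 (edgeR adjusted p = 0.832) and Rbl2 to 0.028 (edgeR adjusted p = 0.951), and 29 further named genes of the 232 called lost their call. The number that lost it was 29 with MDSC summed, 21 with glmTreat, 4 with upper quartile scaling, 2 each with relative log expression scaling and without a filter, 1 with DESeq2, and 4 to 13 when 1 library was left out. The causes were not tested. No paired analysis was possible because the labels give no replicate numbers that groups share.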

Other observations

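Immunoglobulin genes were lower in ih_DCTC without exception among those tested, in 90 of 90 and 54 of 54 genes of the annotation's pair of variable segment classes and in 9 of 9 constant segments. Of 336 processed pseudogenes, 31.5% were called higher, next to 31.2% of all tested genes, and 11.6% lower, next to 28.1%. Their median log2 fold change was 0.95.

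By chromosome, genes on chromosome 15 were called higher most often, in 43.9% of those tested, and lower in 19.9%. Their median log2 fold change was 0.72, and 0.57 and 0.93 under relative log expression and upper quartile scaling. Chromosome 8 followed with 36.2% higher and 20.9% lower. On chromosome 1, 25.5% were higher and 34.9% lower, and on the X chromosome 22.1% and 30.8%. Xist, the RNA that silences an X chromosome, measured 53.2, 413 and 465 CPM in the ih_DCTC libraries and 615, 621 and 580.4 CPM in MDSC. Its log2 difference of -0.96 was not called (edgeR adjusted p = 0.32), whereas a fit of Xist that included the intron share gave 2.94 (edgeR adjusted p = 0.000827). Genes of the Y chromosome in the lists had no count in any of the 6 libraries. The 7 tested Y chromosome genes summed to 96.4, 101.7 and 176.8 CPM in the ih_DCTC libraries and 63.5, 50.3 and 54.45 CPM in MDSC. Of them, 1 was called higher and 1 lower.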
